A study of Mus musculus with 16 samples.

Results

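Regulatory T cells (Treg) sorted from the uterus of mice in early pregnancy were compared with conventional CD4 T cells (CD4conv) sorted from the uterus of non-pregnant mice, by RNA sequencing of pooled sorted cells. The comparison was defined by the sample labels alone: 4 pregnant uterine Treg libraries and 4 uterine CD4conv libraries, 8 of the 16 libraries of the series. All mice carried the Foxp3IRES-GFP reporter on a BALB/c background, so that cells transcribing Foxp3, the lineage-defining transcription factor of Treg, could be sorted live by green fluorescence. The Treg libraries were labelled CD4+Foxp3+CD25- and came from pools of 3 to 8 mice at days 6, 7 and 8 of pregnancy, although the titles of 3 of the 4 gave a later last day. The CD4conv libraries were labelled CD4+Foxp3- and came from pools of 20 non-pregnant mice each. No label gave the age of the mice. Both groups were sequenced in the same batch. Cell type and pregnancy both differed between the 2 groups and cannot be told apart in this comparison. The other 8 libraries, non-pregnant uterine Treg and lymph node Treg, were sequenced in another batch and are used here only to estimate the spread and, for the first of them, as values beside those of the comparison. Nothing in the labels says that same-numbered pools shared animals. The tests measure the spread between pools within groups, shared over all 16 libraries and so including pools of the other batch.

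Treg restrain the responses of other T cells. They do so through CTLA-4, which strips costimulatory ligands from antigen-presenting cells, through uptake of interleukin-2 by its high-affinity receptor, through latent TGF-beta held on the surface by GARP, and through suppressive cytokines such as interleukin-10. In non-lymphoid tissues many Treg carry the interleukin-33 receptor ST2 and make amphiregulin, a growth factor of tissue repair. In pregnancy, uterine Treg are known for their part in tolerance of the fetus. Conventional CD4 T cells are the helper and memory cells that Treg hold in check.

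The 8 libraries held 3573761 to 15190212 counted reads (CD4conv 7674391 to 12302043). A background of reads, taken to be genomic and evenly spread, was estimated from genes of odorant and pheromone receptors. By this estimate it took 9.39% to 21.7% of the counts in CD4conv but 9.94%, 35.3%, 8.69% and 53.6% in pregnant Treg libraries 1 to 4. Whether it was genomic and even was not tested. As a check of the labelled cell type, 16 T cell identity genes, which include the CD3 chains and Cd4, had a summed level of 8171, 4366, 7679 and 2194 CPM (counts per 1000000 of the library's total) in pregnant Treg and 6030, 3737, 2442 and 6180 CPM in CD4conv. Of these 16 genes, 1 was called (adjusted p under 0.05 by edgeR), higher in Treg, beside 4.11% called higher over all 4719 genes tested. The number called higher was 3 by DESeq2, 3 without Treg library 4, 3 without Treg libraries 2 and 4, 5 with replicate number as a block, 4 of 15 against 10 times the background, and 0 in a fit of the 8 compared libraries alone. The CD4conv libraries also held genes of other cells. The 20 listed macrophage and dendritic cell markers summed to 6723, 22921, 28182 and 2360 CPM in CD4conv libraries 1, 2, 3 and 5, against 442 to 845 CPM in pregnant Treg, and 21 plasmacytoid dendritic cell markers summed to 7113, 8482, 9451 and 3823 CPM against 592 to 830 CPM. Results are also given without CD4conv libraries 2 and 3, and without pregnant Treg libraries 2 and 4. In pooled cells such as these, fewer cells of a type and less RNA per cell cannot be told apart. The part of the other cells' genes, and of the background, in the results that follow was not tested.

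**Figure D1:**
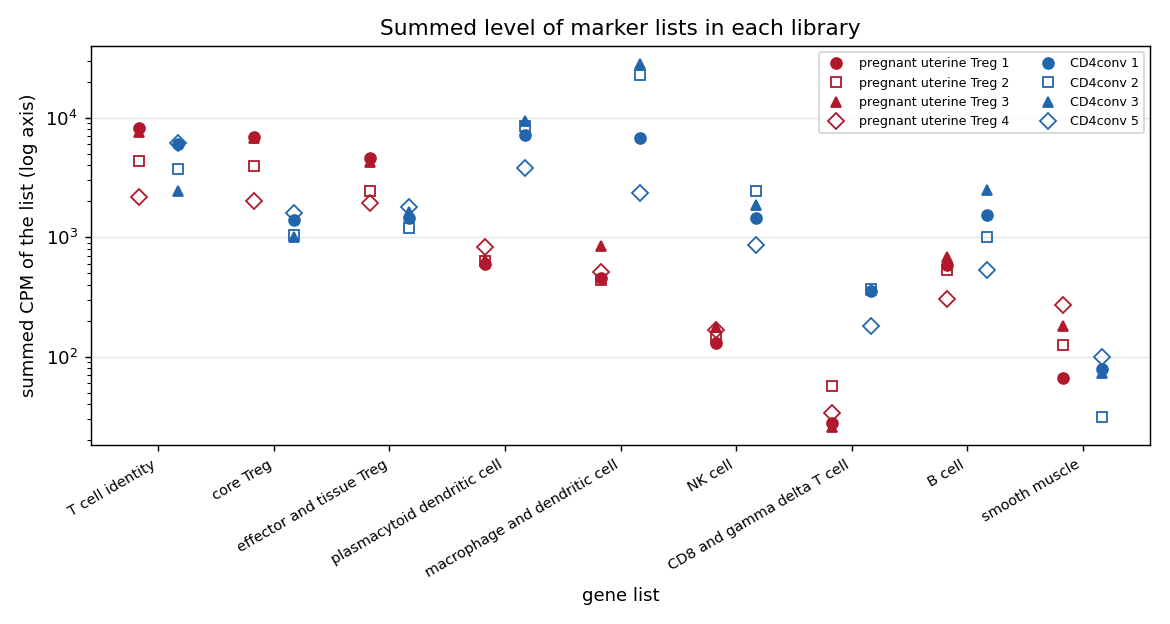
Summed CPM (log axis) of 9 gene lists in each of the 8 libraries, pregnant uterine Treg in red and CD4conv in blue, with one marker shape per library. The plasmacytoid dendritic cell sums are 592 to 830 CPM in pregnant Treg and 3823 to 9451 CPM in CD4conv, while the T cell identity sums of the groups overlap.

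Genes were tested with edgeR's quasi-likelihood test, and a gene was called when its Benjamini-Hochberg adjusted p was under 0.05. Of 4719 protein-coding genes whose signal exceeded 5 times the estimated background, 194 (4.11%) were higher and 202 (4.28%) lower in pregnant uterine Treg than in CD4conv. That signal was averaged over all 16 libraries, so a gene high in 1 group alone could pass through that group. The median log2 fold change was 1.28 over the genes called higher and -1.96 over those called lower, and more than 8-fold differences were found for 10 genes called higher and 58 called lower. Without regard to any test, all 4 Treg libraries lay above all 4 CD4conv libraries for 121 of the 4719 genes (2.56%) and below them for 429 (9.09%). Over all 30096 genes with enough counts, 10 were called higher (0.0332%) and 120 lower (0.399%), so that the split between directions differed between the gene sets. The spread between replicates was larger in the second set, with a biological coefficient of variation of 0.812 against 0.433. The genes above background had a median log2 fold change of 0.031 in their own fit and -0.227 in the fit over all genes, and values below are from the former unless stated. The counts of 194 and 202 depended on single libraries. The higher count was 116, 127 and 115 without CD4conv library 1, 2 or 3, and the lower count was 122 and 129 without CD4conv library 2 or 3 and 131, 134 and 125 without Treg library 1, 2 or 3. Over all genes the higher count of 10 became 5 and 2 without CD4conv library 1 or 3, 6 without Treg library 1 or 3 and 16 without Treg library 4, and the lower count of 120 became 69 without CD4conv library 3 and 73 without Treg library 2. Without Treg libraries 2 and 4 together, 165 and 123 genes above background were called, and without CD4conv libraries 2 and 3 together 63 and 46. With replicate number as a block, over the 6 libraries numbered 1, 2 and 3, the counts were 236 and 247, against 117 and 174 for the same libraries without the block. That fit leaves out CD4conv library 5 and Treg library 4. The block's part in a single gene's call is not separated below from that of the libraries left out.

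**Figure D2:**
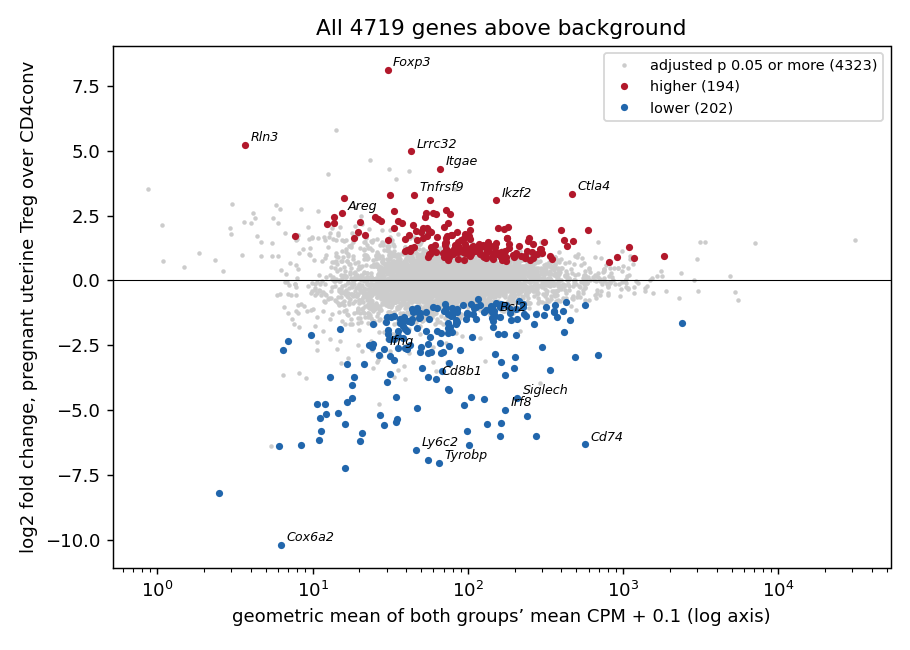
Log2 fold change (pregnant uterine Treg over CD4conv) against the geometric mean of the groups' mean CPM (log axis) for the 4719 genes above background, each point 1 gene. Foxp3 stands highest at 8.13 and Cox6a2, with 3 counts in Treg, lowest at a fitted -10.18, and the genes called lower reach further from 0 than those called higher.

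The genes that define Treg were higher in the Treg libraries. Foxp3, the gene by which the labels tell the sorted cells apart, was read at 677, 216, 814 and 192 CPM in pregnant Treg libraries 1 to 4 and at 3.06, 0.569, 0.503 and 3.26 CPM in CD4conv libraries 1, 2, 3 and 5. The groups did not come near each other, and the log2 fold change was 8.13 ± 0.59 (SE), adjusted p = 1.68e-07. Il2ra encodes CD25, the marker by which the Treg were labelled negative, and stood at 108, 125, 190.2 and 76.7 CPM against 22.3, 17.4, 27.2 and 25.9 CPM. Every Treg library was above every CD4conv library for this transcript (log2 fold change 2.62 ± 0.26 (SE), adjusted p = 4.07e-06). In the fit over all genes Il2ra was not called (adjusted p = 0.083). Cd4 itself stood at 551, 199, 668 and 94.6 CPM against 569, 186, 429 and 625 CPM, with overlapping groups (log2 fold change -0.22 ± 0.39 (SE), adjusted p = 0.76). Cd3e, a chain of the antigen receptor complex, stood at 957, 492, 1014 and 184 against 473, 294, 195 and 502 CPM and was not called (log2 fold change 0.93 ± 0.33 (SE), adjusted p = 0.090, and 0.028 with replicate number as a block).

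Of 16 core Treg genes, 15 were above background, and 12 of these were higher, beside 4.11% of all 4719 genes. None was lower (0 by DESeq2 and 0 at an unadjusted p under 0.05), and the median log2 fold change was 2.23 against 0.031 over all 4719 genes. For 9 of the 16 the groups did not overlap, the Treg libraries being above, as they were for 2.56% of all 4719 genes. The 16 include a gene outside the 4719, and no such share was computed over all genes. Lrrc32 encodes GARP, which docks latent TGF-beta on Treg, and stood at 369, 116, 380.1 and 72.5 CPM against 3.61, 0.0813, 5.43 and 22.5 CPM. Lrrc32 was higher in Treg (log2 fold change 4.97 ± 0.86 (SE), adjusted p = 0.0019). Itgae, the alpha chain of the CD103 integrin that binds epithelial E-cadherin, stood at 391, 202, 382 and 141 against 24.3, 2.03, 16.1 and 20.9 CPM. That was 19.8-fold higher (adjusted p = 1.04e-05). Ctla4 stood at 2437, 1300, 1703 and 385 against 206, 93.2, 73.0 and 237 CPM, 10.2-fold higher (adjusted p = 1.72e-05). For these 3 genes the lowest Treg library, number 4 each time, was still above the highest CD4conv library. Ikzf2, the transcription factor Helios, stood at 476, 389.7, 474 and 294 against 60.7, 38.9, 50.2 and 74.1 CPM. Ikzf2 was higher in Treg (log2 fold change 3.09 ± 0.26 (SE), adjusted p = 7.68e-07). Nrp1, the semaphorin receptor neuropilin-1, stood at 289, 168, 595 and 171 against 77.0, 122, 118 and 105 CPM. Nrp1 was higher in Treg (log2 fold change 1.63 ± 0.28 (SE), adjusted p = 0.0013). The receptors GITR (Tnfrsf18) and OX40 (Tnfrsf4) were 2.55-fold and 2.25-fold higher, with groups that overlapped (adjusted p = 0.0033 and 0.047). The call of Tnfrsf4 did not hold without CD4conv library 1, 2 or 3 or Treg library 1, 2 or 3, with adjusted p up to 0.13. Capg, an actin-capping protein, and Il2rb, the shared beta chain of the interleukin-2 and interleukin-15 receptors, were not called (log2 fold change 0.93 ± 0.32 (SE), adjusted p = 0.080 and 0.47 ± 0.31 (SE), adjusted p = 0.36), although Il2rb was with the block (adjusted p = 0.042). Without CD4conv libraries 2 and 3, 10 of the 15 genes were called higher, and Tnfrsf4 and Tnfrsf18 were not (adjusted p = 0.36 and 0.074).

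**Figure D3:**
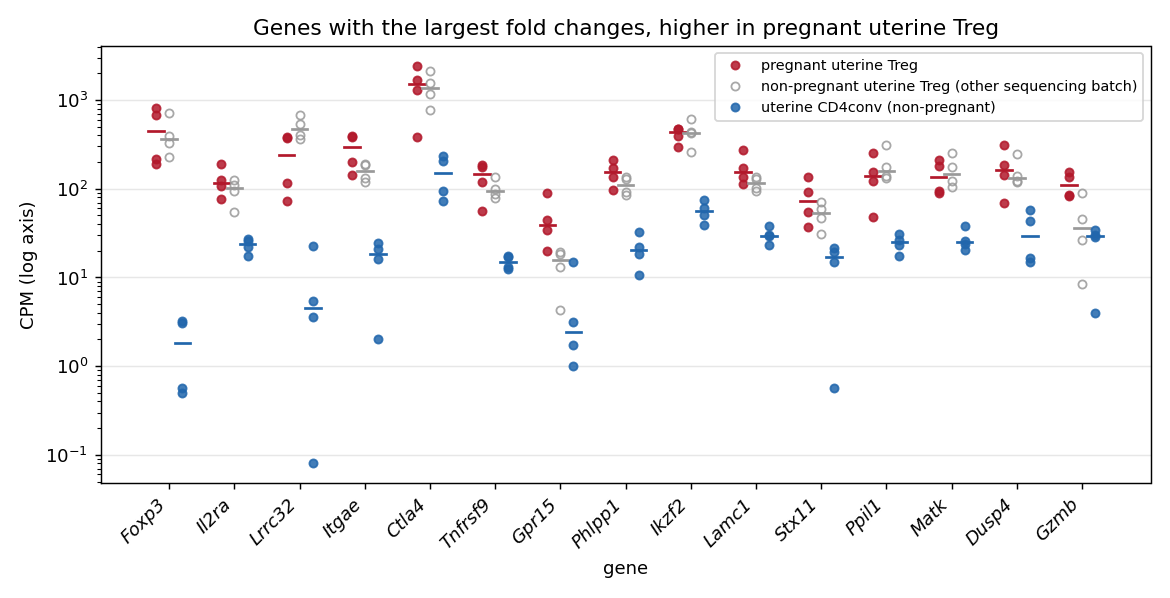
CPM (log axis) of the 15 genes with the largest fold changes among those called higher, one point per library and a bar at the median: pregnant uterine Treg in red, CD4conv in blue and, for reference, non-pregnant uterine Treg of the other batch as open grey points. No red point lies below a blue point for any of the 15 genes, which were chosen for that, and Foxp3 shows the widest gap.

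The largest fold changes among the genes called higher also included genes outside the core list. Tnfrsf9, the costimulatory receptor 4-1BB, stood at 188, 119, 177 and 56.8 CPM against 17.4, 12.4, 13.0 and 17.1 CPM. Tnfrsf9 was higher in Treg (log2 fold change 3.30 ± 0.27 (SE), adjusted p = 7.23e-07). Phlpp1, a phosphatase that acts on the kinase Akt, stood at 173, 97.0, 209 and 135 against 18.4, 10.7, 22.1 and 33.0 CPM. Phlpp1 was higher in Treg (log2 fold change 3.10 ± 0.38 (SE), adjusted p = 3.89e-05). The groups were also far apart for Lamc1, which encodes the gamma 1 chain of laminin, at 170.2, 114, 274 and 135 against 29.0, 23.5, 29.9 and 38.3 CPM (log2 fold change 2.73 ± 0.31 (SE), adjusted p = 1.86e-05). Ppil1, a prolyl isomerase of the spliceosome, was 6.15-fold higher and Matk, a kinase related to Csk, 5.96-fold higher (adjusted p = 3.89e-05 and 1.51e-05). Dusp4, a phosphatase that inactivates MAP kinases, was 5.92-fold higher at 313, 142, 187 and 69.7 against 42.9, 16.4, 14.8 and 57.6 CPM (adjusted p = 4.91e-04). Stx11, a syntaxin of cytotoxic granule release, stood at 137, 37.2, 91.0 and 54.3 against 14.98, 0.569, 21.4 and 19.1 CPM, with CD4conv library 2 far below the other CD4conv libraries (log2 fold change 2.68 ± 0.64 (SE), adjusted p = 0.014, and adjusted p = 0.056 with the block). Gpr15, a homing receptor, stood at 44.7, 33.9, 90.4 and 19.9 against 1.75, 14.96, 1.01 and 3.13 CPM, and here CD4conv library 2 was the high one. Its log2 fold change was 3.20 ± 0.78 (SE), adjusted p = 0.016, with an adjusted p of 0.071 under the block.

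Genes of effector and tissue Treg were either higher or not called. Of 24 listed genes, 19 were above background, and 10 were higher, beside 4.11% of all 4719 genes. None was lower (0 by DESeq2 and 0 at an unadjusted p under 0.05), and the median over the 19 was 1.28 against 0.031 over all 4719 genes. Klrg1, an inhibitory receptor of late effector lymphocytes, stood at 94.8, 119, 147 and 16.8 CPM against 9.51, 0.325, 12.2 and 19.6 CPM. Only Treg library 4 fell among the CD4conv values, and the log2 fold change was 3.31 ± 0.70 (SE), adjusted p = 0.0064, with an adjusted p of 0.064 under the block. Tigit, an inhibitory receptor for nectin-family ligands, stood at 119, 53.9, 87.6 and 41.1 against 13.1, 18.1, 13.2 and 23.1 CPM. Tigit was higher in Treg (log2 fold change 2.29 ± 0.33 (SE), adjusted p = 3.22e-04). Il1rl1, which encodes ST2, stood at 219, 114, 189.5 and 84.5 against 36.6, 20.4, 41.1 and 46.3 CPM, again without overlap (log2 fold change 2.22 ± 0.33 (SE), adjusted p = 3.66e-04). Rora, a nuclear receptor of tissue lymphocytes, stood at 1086, 579, 753 and 480.2 against 221, 126, 145 and 377 CPM, 3.83-fold higher (adjusted p = 0.0022). Gzmb, the protease granzyme B, stood at 135, 82.3, 154 and 84.8 against 28.4, 3.98, 29.8 and 34.4 CPM (log2 fold change 2.46 ± 0.60 (SE), adjusted p = 0.017), without overlap. Icos, a costimulatory receptor, was 2.51-fold higher with overlapping groups (adjusted p = 0.017, and 0.052 without Treg library 1). Gata3, the transcription factor of type 2 helper cells that tissue Treg share, stood at 235, 123, 238 and 94.6 against 149.8, 101, 79.5 and 145 CPM. Gata3 was not called (log2 fold change 0.68 ± 0.25 (SE), adjusted p = 0.11). Tnfrsf1b, the TNF receptor TNFR2, was not called either (log2 fold change 1.09 ± 0.40 (SE), adjusted p = 0.10) but was with the block (adjusted p = 0.011). The transcription factor Nfil3 was not called (log2 fold change 0.48 ± 0.25 (SE), adjusted p = 0.24).

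The secreted products of this list, Areg and Il10, are also listed among the growth and vessel factors. Areg, which encodes amphiregulin, stood at 72.4, 29.9, 43.7 and 5.04 CPM in pregnant Treg and 4.26, 7.15, 7.24 and 6.38 CPM in CD4conv. Libraries 1 to 3 of the Treg were above every CD4conv library and library 4 was not (log2 fold change 2.59 ± 0.56 (SE), adjusted p = 0.0069). Il10 stood at 31.4, 32.4, 13.3 and 27.1 against 7.98, 2.28, 9.96 and 8.08 CPM, without overlap (log2 fold change 2.23 ± 0.55 (SE), adjusted p = 0.017), but its adjusted p was 0.17 with the block and 0.14 without Treg libraries 2 and 4. Without CD4conv libraries 2 and 3, 5 of the 19 effector and tissue genes were called higher, and adjusted p was 0.057 for Areg, 0.12 for Il10, 0.12 for Gzmb, 0.076 for Rora and 0.22 for Icos. Gzmb had an adjusted p of 0.052 without Treg libraries 2 and 4.

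Among 32 growth and vessel factors, 12 were above background, with 6 higher and 3 lower, beside 4.11% and 4.28% of all 4719 genes. Those called higher were Rln3, Cxcl10, Areg and Il10, given here or above, the semaphorin receptor Nrp1, and Penk, the precursor of the enkephalin peptides, which falls outside the rule for named genes. Rln3, which encodes the peptide hormone relaxin-3, stood at 19.5, 18.6, 18.8 and 17.6 CPM against 1.64, 0, 0.302 and 0.521 CPM. The 4 Treg libraries were nearly equal and all far above CD4conv (log2 fold change 5.24 ± 0.81 (SE), adjusted p = 4.80e-04). The annotated Rln3 gene lies at chr8:84042929-84045000 on the minus strand of GRCm38, just upstream of the start of Il27ra (chr8:84030294-84042589), which is on the same strand. Il27ra, a cytokine receptor chain looked at after its values were seen, was not called (log2 fold change 0.59 ± 0.34 (SE), adjusted p = 0.30). Cxcl10, a chemokine that attracts CXCR3-bearing cells, stood at 83.3, 47.6, 47.9 and 39.2 against 8.64, 4.63, 23.4 and 9.12 CPM. Cxcl10 was higher in Treg (log2 fold change 2.44 ± 0.46 (SE), adjusted p = 0.0026). Hif1a, the oxygen-sensing transcription factor, was not called (log2 fold change 0.68 ± 0.34 (SE), adjusted p = 0.22) but was with the block (adjusted p = 0.024), and Tgfb1 was not called (log2 fold change -0.42 ± 0.27 (SE), adjusted p = 0.36). The 3 genes called lower were Ccl5, Plaur and Ccl2. Ccl5, a chemokine of cytotoxic and memory T cells, stood at 11.8, 24.7, 7.31 and 11.2 CPM against 176, 457, 113 and 135 CPM. Ccl5 was lower in Treg (log2 fold change -3.73 ± 0.58 (SE), adjusted p = 4.91e-04). Plaur, the urokinase receptor, stood at 22.3, 11.5, 14.6 and 16.5 against 75.9, 69.2, 141 and 71.8 CPM. Plaur was lower in Treg (log2 fold change -2.21 ± 0.48 (SE), adjusted p = 0.0074, and adjusted p = 0.12 without CD4conv libraries 2 and 3). Ccl2, a monocyte chemokine, was read at 16.1, 115, 318 and 7.04 CPM in CD4conv, highest in the libraries 2 and 3 that were rich in macrophage markers, and its log2 fold change of -3.62 ± 1.08 (SE), adjusted p = 0.049 became -0.17 (adjusted p = 0.96) without them and -2.33 without library 3 alone. The call was also lost without CD4conv library 2 or 3 singly or any 1 of the Treg libraries (adjusted p up to 0.17), without Treg libraries 2 and 4 (adjusted p = 0.22) and with the block (adjusted p = 0.077). Spp1, the secreted phosphoprotein osteopontin, followed the same libraries at 13.7, 93.2, 202 and 11.9 CPM and was not called (log2 fold change -3.38 ± 1.12 (SE), adjusted p = 0.072, and adjusted p = 0.033 with the block). Its log2 fold change was -0.60 without CD4conv libraries 2 and 3 (adjusted p = 0.89), and without library 3 alone -2.38.

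Of 18 listed genes of the TGF-beta axis, 10 were above background and 2 were called, both higher, beside 4.11% of all 4719 genes, with a median of -0.09. They were Lrrc32, given above, and Tgif1, a repressor of TGF-beta target genes, at 504, 256, 334 and 196 CPM against 131, 144, 142 and 154 CPM (log2 fold change 1.33 ± 0.23 (SE), adjusted p = 0.0012). The receptor genes Tgfbr1 and Tgfbr2 were not called (log2 fold change -0.80 ± 0.38 (SE), adjusted p = 0.21 and -0.69 ± 0.28 (SE), adjusted p = 0.14), although Tgfbr1 was lower in every Treg library than in every CD4conv library and had an adjusted p of 0.038 under the block. Smad4, the shared signal transducer, and Skil, a repressor of it, were not called (log2 fold change -0.01 ± 0.28 (SE), adjusted p = 0.99 and -0.61 ± 0.34 (SE), adjusted p = 0.28).

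Receptors and adaptors of the TNF family carry costimulatory and death signals in T cells. Of 19 listed, 15 were above background, with a median of 1.14 and none lower (1 by DESeq2 and 2 at an unadjusted p under 0.05). The genes called higher numbered 8, beside 4.11% of all 4719 genes. Besides Tnfrsf9, Tnfrsf18 and Tnfrsf4, these included the death receptor Fas at 78.6, 49.1, 108 and 51.2 CPM against 28.9, 23.6, 18.9 and 24.8 CPM (log2 fold change 1.76 ± 0.30 (SE), adjusted p = 0.0011). Cd27, the costimulatory receptor for CD70 and the 1 T cell identity gene that was called, stood at 270.1, 150.0, 217 and 93.7 against 111, 50.9, 35.6 and 108 CPM. Cd27 was higher in Treg (log2 fold change 1.43 ± 0.28 (SE), adjusted p = 0.0033). Its call was lost in a fit of the 8 compared libraries alone. Traf1, an adaptor of these receptors, stood at 758, 394, 648 and 203 against 231, 143, 150.1 and 252 CPM. Traf1 was higher in Treg (log2 fold change 1.48 ± 0.25 (SE), adjusted p = 0.0011). Traf5, another adaptor, was 2.21-fold higher (adjusted p = 0.024), a call lost without CD4conv library 1, 2 or 3 or Treg library 4 (adjusted p up to 0.071) and with the block (adjusted p = 0.13). Traf6 and the ligand gene Ltb were not called (log2 fold change -0.13 ± 0.41 (SE), adjusted p = 0.87 and 0.41 ± 0.34 (SE), adjusted p = 0.49). The count of 8 was 5 without CD4conv library 1, 2 or 3 singly and 4 without libraries 2 and 3 together, when Traf5 had an adjusted p of 0.27. Without Treg libraries 2 and 4 it was 7, and Traf5 had 0.071.

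Of 19 NF-kB pathway genes, 17 were above background, with a median of 0.56 and none lower (0 by DESeq2 and 0 at an unadjusted p under 0.05). The genes called higher numbered 4, beside 4.11% of all 4719 genes. Tnip1, a partner of the NF-kB inhibitor A20, was 2.35-fold higher at 222, 115, 189 and 84.8 CPM against 88.9, 56.7, 53.4 and 90.8 CPM (adjusted p = 0.0027). Birc2, the ubiquitin ligase cIAP1, was 2.09-fold higher (adjusted p = 0.013). Nfkbie and Nfkbia encode inhibitors that hold NF-kB in the cytoplasm and were 1.89-fold and 1.84-fold higher (adjusted p = 0.018 and 0.038). With the block neither was called (adjusted p = 0.13 and 0.098), and the call of Nfkbia held only without CD4conv library 2 among the 8 fits that each leave out 1 library (adjusted p up to 0.10). Tnfaip3, which encodes A20, was not called at 6038, 2465, 5846 and 1206 against 2604, 1388, 1810 and 3486 CPM (log2 fold change 0.81 ± 0.33 (SE), adjusted p = 0.14) but was with the block (adjusted p = 0.024). The NF-kB subunit Rela, the kinase gene Ikbkb and the atypical inhibitor Nfkbiz were not called (log2 fold change 0.27 ± 0.24 (SE), adjusted p = 0.53, 0.10 ± 0.26 (SE), adjusted p = 0.85 and 0.65 ± 0.26 (SE), adjusted p = 0.13). Without CD4conv libraries 2 and 3, 1 of the 17 genes was called, and adjusted p was 0.080 for Tnip1, 0.17 for Birc2 and 0.10 for Nfkbie. Without Treg libraries 2 and 4 it was 0.051 for Birc2, 0.12 for Nfkbie and 0.14 for Nfkbia.

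**Figure D4:**
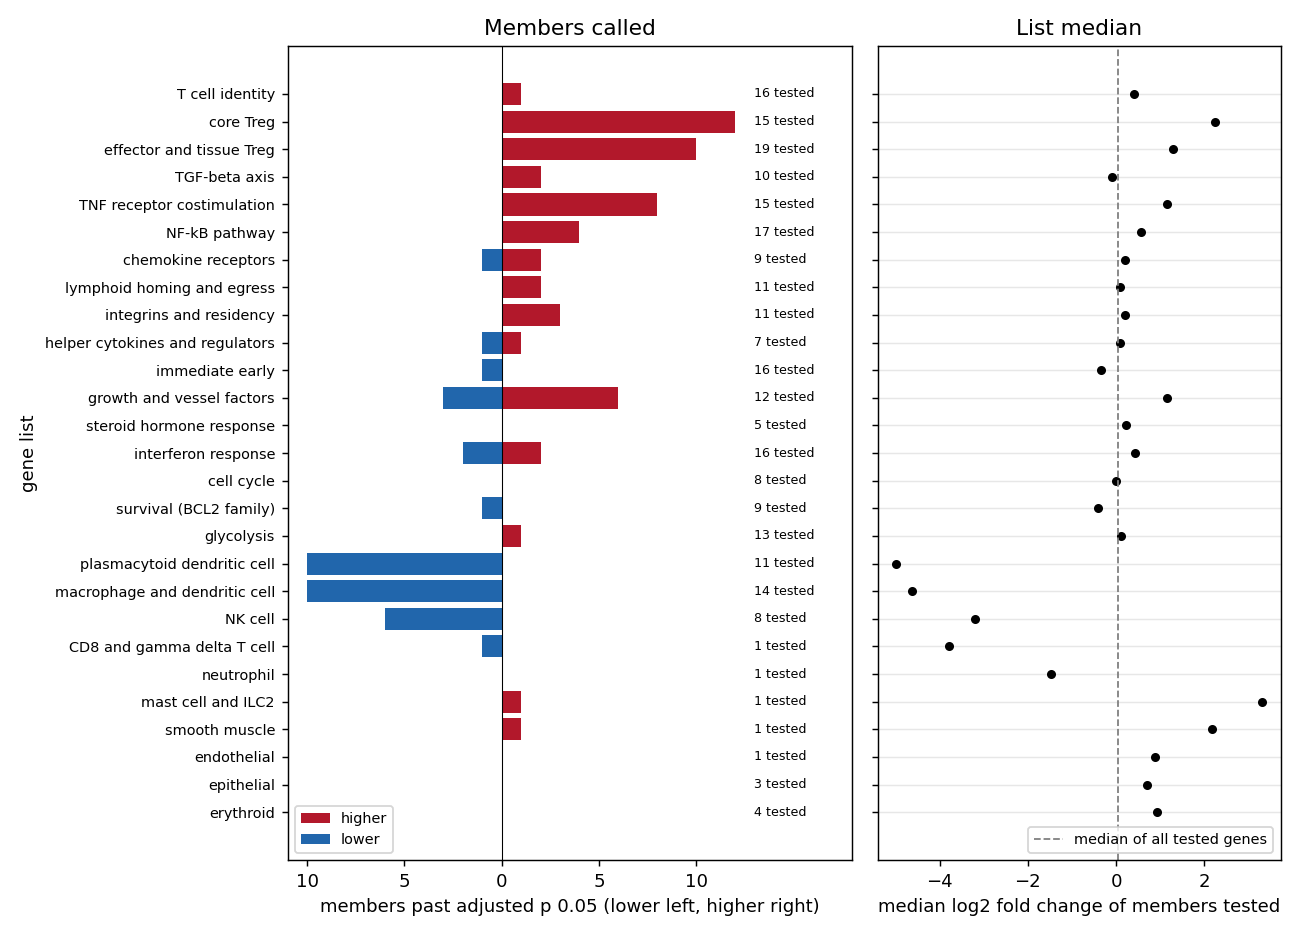
Members of each gene list called higher (red, to the right) or lower (blue, to the left), with the number above background that was tested, and on the right the list's median log2 fold change beside the median of all 4719 genes (dashed). Core Treg genes have 12 of 15 called higher, and plasmacytoid dendritic cell markers 10 of 11 called lower, beside 4.11% and 4.28% of all 4719 genes.

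Of 16 listed chemokine receptors, 9 were above background, with 2 higher and 1 lower, beside 4.11% and 4.28% of all 4719 genes. Ccr6, the receptor for CCL20, stood at 68.8, 62.5, 77.1 and 21.3 CPM against 11.6, 20.2, 8.55 and 7.43 CPM. Ccr6 was higher in Treg (log2 fold change 2.36 ± 0.40 (SE), adjusted p = 0.0011). Ccr4, a receptor of skin and tissue homing, stood at 142, 79.2, 111 and 54.6 against 35.6, 8.94, 19.1 and 45.6 CPM. Ccr4 was higher in Treg (log2 fold change 2.01 ± 0.37 (SE), adjusted p = 0.0019). Ccr9, the gut homing receptor that plasmacytoid dendritic cells also carry, stood at 27.6, 47.0, 26.2 and 106 against 651, 713, 1231 and 464 CPM and was lower (log2 fold change -3.37 ± 0.72 (SE), adjusted p = 0.0088). Its call was lost without CD4conv libraries 2 and 3 (adjusted p = 0.089). Ccr7, the receptor for entry into lymph nodes, stood at 1163, 359, 498 and 300.0 against 668, 416, 248 and 886 CPM. Ccr7 was not called (log2 fold change 0.20 ± 0.36 (SE), adjusted p = 0.77). Ccr2 and Cxcr3 were not called, with log2 fold changes of 0.02 ± 0.33 (SE), adjusted p = 0.98 and -0.16 ± 0.36 (SE), adjusted p = 0.81.

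Among 12 genes of lymphoid homing and egress, 11 were above background and 2 were higher, beside 4.11% of all 4719 genes. Foxo1, the transcription factor that drives this program, stood at 915, 477, 741 and 517 CPM against 359, 146, 194 and 353 CPM. Foxo1 was higher in Treg (log2 fold change 1.56 ± 0.28 (SE), adjusted p = 0.0015). Itgb7, the beta 7 integrin chain that pairs with the chain encoded by Itgae, was 1.86-fold higher (adjusted p = 0.043), and the call held only without Treg library 4 among the 8 fits that each leave out 1 library (adjusted p up to 0.11, and 0.42 without CD4conv libraries 2 and 3). Klf2 and its target S1pr1, the receptor by which T cells leave tissue, were not called (log2 fold change -0.50 ± 0.25 (SE), adjusted p = 0.23 and 0.10 ± 0.35 (SE), adjusted p = 0.88), nor was Dusp10 (log2 fold change -0.31 ± 0.39 (SE), adjusted p = 0.66). Of 11 integrin and residency genes above background, Itgae, Itgb7 and Itga6 were higher, beside 4.11% of all 4719 genes. Itga6, a laminin-binding chain, stood at 164, 83.0, 263 and 78.1 against 73.2, 12.6, 59.8 and 74.8 CPM. Itga6 was higher in Treg (log2 fold change 1.56 ± 0.38 (SE), adjusted p = 0.015, and adjusted p = 0.058 without Treg library 3 and 0.057 without CD4conv libraries 2 and 3). The residency marker Cd69 and the genes Itgb1, Rgs1 and Rgs2 were not called (log2 fold change 0.35 ± 0.30 (SE), adjusted p = 0.49, 0.19 ± 0.32 (SE), adjusted p = 0.74, -0.20 ± 0.27 (SE), adjusted p = 0.67 and 0.63 ± 0.25 (SE), adjusted p = 0.13).

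Of 20 helper cytokines and regulators, 7 were above background, with 1 higher and 1 lower, beside 4.11% and 4.28% of all 4719 genes. Ifng, the cytokine of type 1 helper and cytotoxic cells, stood at 7.56, 16.7, 20.5 and 0 CPM in pregnant Treg and 86.9, 58.7, 51.3 and 98.4 CPM in CD4conv. No Treg library reached the lowest CD4conv library (log2 fold change -2.62 ± 0.68 (SE), adjusted p = 0.022), and the call was lost without CD4conv library 1 or Treg library 1 (adjusted p up to 0.064) and without CD4conv libraries 2 and 3 (adjusted p = 0.076). Cd40lg, the helper signal to B cells, stood at 40.7, 18.4, 17.6 and 13.7 against 143, 108, 63.3 and 117 CPM, without overlap, and missed the threshold (log2 fold change -2.08 ± 0.69 (SE), adjusted p = 0.070) except with the block (adjusted p = 0.0059). Stat3, Stat4 and Stat6 were not called (log2 fold change 0.48 ± 0.22 (SE), adjusted p = 0.18, 0.10 ± 0.31 (SE), adjusted p = 0.87 and 0.17 ± 0.46 (SE), adjusted p = 0.85).

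Interferon response genes gave 2 higher and 2 lower of 16 above background, beside 4.11% and 4.28% of all 4719 genes, with a median of 0.43. Igtp, a GTPase of cell-autonomous immunity, was 2.46-fold higher (adjusted p = 0.020), a call lost without CD4conv library 2 or 3 or Treg library 1 or 3 (adjusted p up to 0.064, and 0.30 without CD4conv libraries 2 and 3). The lower genes, Bst2 and Irf7, are also listed as plasmacytoid dendritic cell markers. Bst2 stood at 67.4, 61.0, 60.2 and 26.9 CPM against 454, 639, 429.7 and 158 CPM (log2 fold change -2.82 ± 0.42 (SE), adjusted p = 3.66e-04), and Irf7 at 296, 133, 291 and 127 against 372, 411, 844 and 265 CPM (log2 fold change -1.04 ± 0.32 (SE), adjusted p = 0.049), the latter called only without CD4conv library 5 among the fits that each leave out 1 library (adjusted p up to 0.23). Without CD4conv library 3 the log2 fold change of Irf7 was -0.58, and its adjusted p was 0.71 without CD4conv libraries 2 and 3 and 0.20 without Treg libraries 2 and 4. Without Treg library 3 no interferon response gene was called higher, and 1 was called without Treg library 1 or CD4conv library 2 or 3. Of 16 immediate early genes above background, 1 was lower, beside 4.28% of all 4719 genes. It was the MAP kinase phosphatase Dusp2 (log2 fold change -1.02 ± 0.30 (SE), adjusted p = 0.039). The call of Dusp2 held in 2 of the 8 fits that each leave out 1 library (without CD4conv library 3 or Treg library 1, with adjusted p up to 0.092 in the others). It did not hold with the block (adjusted p = 0.0996), without CD4conv libraries 2 and 3 (0.12) or without Treg libraries 2 and 4 (0.16). Nr4a1, a reporter of antigen receptor signalling, was not called (log2 fold change 1.01 ± 0.38 (SE), adjusted p = 0.11) but was with the block (adjusted p = 0.012), and Fos, Junb and Dusp1 were not called (log2 fold change -0.48 ± 0.43 (SE), adjusted p = 0.52, 0.29 ± 0.21 (SE), adjusted p = 0.41 and -0.07 ± 0.35 (SE), adjusted p = 0.91).

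The remaining programs gave 0 or 1 call each, where 4.11% of all 4719 genes were called higher and 4.28% lower. Bcl2, which protects lymphocytes from apoptosis, was the only 1 of 9 survival genes called, at 109, 50.8, 87.6 and 91.8 CPM against 303, 285, 133 and 301 CPM (log2 fold change -1.31 ± 0.31 (SE), adjusted p = 0.012), lower in every Treg library. The call of Bcl2 was lost in a fit of the 8 compared libraries alone. Of 13 glycolysis genes, the glucose transporter Slc2a3 was higher at 163, 149, 193 and 138 against 88.5, 45.9, 101 and 93.8 CPM (log2 fold change 1.22 ± 0.30 (SE), adjusted p = 0.017, with adjusted p = 0.053 without CD4conv library 2, 0.13 without CD4conv libraries 2 and 3, 0.12 without Treg libraries 2 and 4, and 0.051 with the block). By edgeR no gene was called among 8 cell cycle genes above background (2 higher and 2 lower at an unadjusted p under 0.05) or 5 steroid response genes (1 higher and 0 lower), while DESeq2 called 1 gene of each list higher. Mki67, the proliferation marker, was outside the set above background and was tested over all genes, where it stood at 91.6, 55.8, 80.0 and 80.3 against 33.0, 16.9, 32.5 and 47.7 CPM. Mki67 was not called (log2 fold change 1.21 ± 0.54 (SE), adjusted p = 0.92). Its unadjusted p by edgeR was 0.033, and every Treg library was above every CD4conv library. The glucocorticoid receptor Nr3c1 was not called (log2 fold change 0.57 ± 0.19 (SE), adjusted p = 0.076).

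The largest fold changes among the genes lower in pregnant Treg included markers of other cell types, and some of these genes have close copies. The pair Ly6c1 and Ly6c2, which encode Ly6C, a surface antigen carried by monocytes and plasmacytoid dendritic cells among others, is shown here because reads from stretches that both share cannot be assigned to one of them. Both genes lie on the minus strand of chromosome 15 in GRCm38, Ly6c1 at chr15:75044018-75048830 and Ly6c2 at chr15:75108158-75111970. Their annotated coding sequences (GENCODE M21) are 396 bases each and 97.7% identical, and 35.4% of all stretches of 75 coding bases of one occur unchanged in the other. The labels gave a longer read length of 150 bases, and the share of whole reads that fit both genes was not measured. The first 60 coding bases follow, with the 5 bases that differ in capitals.
Ly6c1: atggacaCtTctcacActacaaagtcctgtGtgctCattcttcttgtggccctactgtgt
Ly6c2: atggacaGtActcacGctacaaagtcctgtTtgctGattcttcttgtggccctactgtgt
A pair of kallikrein genes among the lowest fold changes, Klk1 and Klk1b27 on the plus strand of chromosome 7, is shown for contrast, since few of its stretches are shared. Their coding sequences of 786 and 792 bases are 84.3% identical, and 1.12% of the stretches of 75 bases of Klk1 occur unchanged in Klk1b27. Capitals again mark the 2 bases that differ in the first 60.
Klk1: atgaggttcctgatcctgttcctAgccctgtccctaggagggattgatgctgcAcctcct
Klk1b27: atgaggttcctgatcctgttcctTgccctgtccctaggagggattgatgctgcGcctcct
Ly6c1 stood at 12.4, 4.39, 37.7 and 26.9 CPM in pregnant Treg and 463, 669.9, 807 and 237 CPM in CD4conv (log2 fold change -4.49 ± 0.93 (SE), adjusted p = 0.0072), and Ly6c2 at 2.62, 0, 15.2 and 0.56 against 425, 605, 626 and 161 CPM (log2 fold change -6.53 ± 1.05 (SE), adjusted p = 0.0012). Both were high in every CD4conv library, and their separate values are uncertain to the extent that reads fall in shared stretches. Klk1 stood at 9.34, 3.76, 0.329 and 5.32 against 646, 881, 758 and 279.5 CPM (log2 fold change -6.91 ± 1.80 (SE), adjusted p = 0.031), and its call held only without CD4conv library 5 among the fits that each leave out 1 library (adjusted p up to 0.072). Ly6c1 and Klk1 were not called without CD4conv libraries 2 and 3 (adjusted p = 0.082 and 0.17), nor Klk1 without Treg libraries 2 and 4 (adjusted p = 0.15). Klk1b27 stood at 0.617, 1.25, 1.12 and 1.68 against 119, 105, 117 and 46.6 CPM (log2 fold change -6.15 ± 0.80 (SE), adjusted p = 8.29e-05).

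Plasmacytoid dendritic cells are the interferon-producing cells of blood and lymphoid tissue. Of 21 listed markers, 11 were above background and 10 of these were lower, beside 4.28% of all 4719 genes. Their median log2 fold change was -4.99 against 0.031 over all 4719 genes. Markers high in CD4conv alone pass the background filter through CD4conv, so this count and median were in part set by the filter. Over all genes, where all 21 were tested, 12 were lower, beside 0.399% of all 30096 genes, with a median of -4.38. All 4 Treg libraries lay below all 4 CD4conv libraries for 19 of the 21, against 9.09% of all genes above background. The 21 include markers outside that set, and no such share was computed over all genes. Siglech, the surface lectin that defines these cells in mice, stood at 10.3, 25.3, 18.1 and 88.1 CPM against 1256, 1257, 1622 and 765 CPM. It was not at 0 in any Treg library, and its log2 fold change was -4.53 ± 1.16 (SE), adjusted p = 0.027, a call lost without CD4conv library 3 or Treg library 1, 2 or 3 (adjusted p up to 0.070). Irf8, their lineage transcription factor, stood at 38.2, 30.5, 31.8 and 16.2 against 1181, 1123, 1311 and 543 CPM. Irf8 was lower in Treg (log2 fold change -4.99 ± 0.51 (SE), adjusted p = 6.36e-06). Spib, another such factor, stood at 0, 8.98, 0.856 and 0 against 205, 123, 239 and 109 CPM. Spib was lower in Treg (log2 fold change -5.87 ± 1.53 (SE), adjusted p = 0.029). Only Treg library 2 held much of it, and the call was lost without CD4conv library 1 or 3 or Treg library 3 or 4 (adjusted p up to 0.071) and with the block (adjusted p = 0.055). Without Treg library 2 its log2 fold change was -8.82. Rnase6, a secreted ribonuclease, stood at 3.70, 3.97, 1.65 and 8.95 against 286, 244, 349 and 144 CPM. Rnase6 was lower in Treg (log2 fold change -5.46 ± 1.16 (SE), adjusted p = 0.0088). Cox6a2, a muscle-type subunit of cytochrome oxidase and a listed marker, stood at 0, 0.418, 0 and 0.28 against 138, 225, 149 and 57.9 CPM. It had 3 counts over all Treg libraries and 5962 over all CD4conv libraries, a ratio of levels of 1857 (exact 95% interval 635 to 9009, counting error only), and an adjusted p of 1.72e-05. Tcf4, the factor that drives their development, was not in the set above background and was tested over all genes, where it stood at 28.5, 171, 56.9 and 308 against 428, 592, 476 and 257 CPM. Tcf4 was not called (log2 fold change -2.31 ± 0.63 (SE), adjusted p = 0.15). Without CD4conv libraries 2 and 3, 4 of the 11 markers were called lower, the median over the 11 was -4.62, and adjusted p was 0.14 for Siglech, 0.15 for Spib and 0.076 for Rnase6. The count of 10 was 6 without CD4conv library 3 or Treg library 3.

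**Figure D5:**
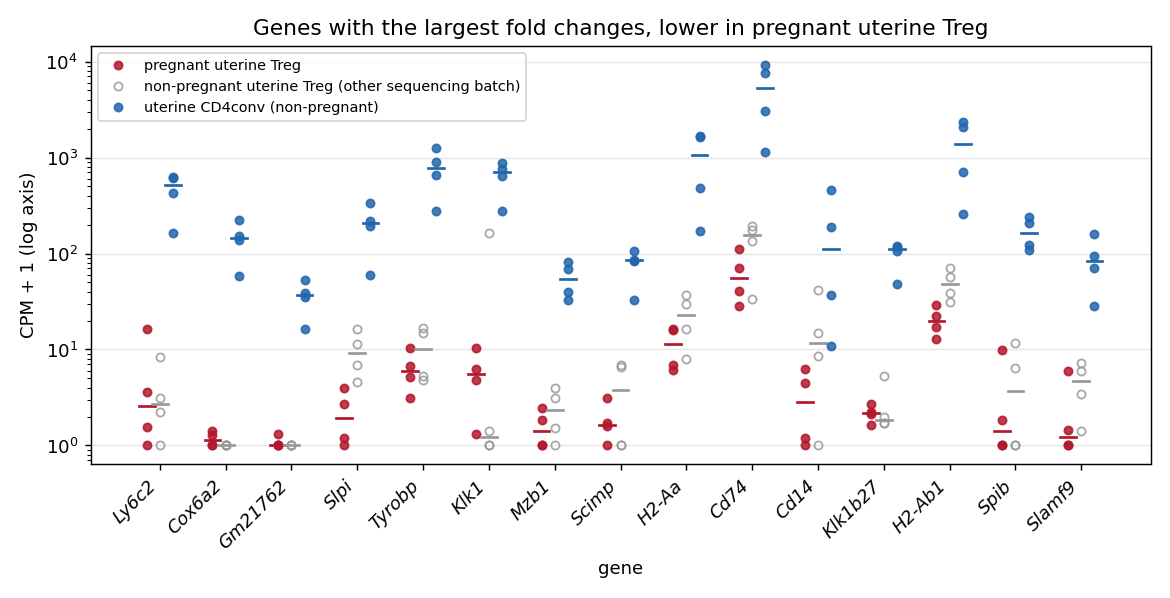
CPM + 1 (log axis) of the 15 genes with the largest fold changes among those called lower, one point per library and a bar at the median: pregnant uterine Treg in red, CD4conv in blue and, for reference, non-pregnant uterine Treg of the other batch as open grey points. All blue points lie above all red points, the condition by which the 15 genes were chosen, and the CD4conv libraries of Cd74 reach the highest levels.

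Macrophages and dendritic cells present antigen on MHC class II molecules. Of 20 listed markers of these cells, 14 were above background and 10 were lower, beside 4.28% of all 4719 genes, with a median of -4.62. These markers too could pass the background filter through CD4conv alone. Over all genes, where all 20 were tested, 9 were lower, beside 0.399% of all 30096 genes, with a median of -4.57. Cd74, the class II invariant chain, stood at 68.9, 27.6, 110.3 and 39.5 CPM against 3041, 7595, 9214 and 1135 CPM. Cd74 was lower in Treg (log2 fold change -6.32 ± 0.78 (SE), adjusted p = 1.12e-04). The class II chain genes H2-Aa, H2-Ab1 and H2-Eb1 had log2 fold changes of -6.33 ± 0.87 (SE), adjusted p = 3.49e-04, -6.00 ± 0.61 (SE), adjusted p = 7.27e-06 and -5.54 ± 0.78 (SE), adjusted p = 3.66e-04. H2-Ab1 was read at 699, 2092, 2342 and 259 CPM in CD4conv libraries 1, 2, 3 and 5 and at 21.3, 16.1, 28.0 and 11.8 CPM in Treg, and the same CD4conv libraries 2 and 3 were the high ones. Cd68, a lysosomal protein of macrophages, stood at 2.47, 3.76, 9.41 and 0.28 against 162, 205, 377 and 63.9 CPM. Cd68 was lower in Treg (log2 fold change -5.57 ± 0.82 (SE), adjusted p = 3.66e-04). Ctss, the cathepsin that processes the invariant chain, and Cst3, a cathepsin inhibitor, were lower as well (log2 fold change -2.55 ± 0.45 (SE), adjusted p = 0.0015 and -3.45 ± 0.62 (SE), adjusted p = 0.0022), but neither was called without CD4conv libraries 2 and 3 (adjusted p = 0.078 and 0.069). Apoe, the lipid carrier of tissue macrophages, differed widely between CD4conv libraries, at 418, 3588, 4652 and 22.3 CPM against 17.2, 12.3, 97.4 and 10.9 CPM in Treg. Its log2 fold change was -6.00 ± 1.41 (SE), adjusted p = 0.018, the call was lost without Treg library 1 or 4 (adjusted p up to 0.060), and without CD4conv libraries 2 and 3 the value was -2.53 (adjusted p = 0.35). Without Treg libraries 2 and 4 its adjusted p was 0.15. Cd14, the endotoxin coreceptor of myeloid cells, stood at 5.25, 0.209, 3.42 and 0 against 36.1, 187, 462 and 9.77 CPM (log2 fold change -6.21 ± 1.39 (SE), adjusted p = 0.013), and at -3.25 without those libraries (adjusted p = 0.30, and 0.10 without Treg libraries 2 and 4). Lyz2 and Csf1r, defining genes of macrophages, were not called (log2 fold change -3.94 ± 1.44 (SE), adjusted p = 0.11 and -2.39 ± 1.03 (SE), adjusted p = 0.17), although both were with the block (adjusted p = 4.18e-05 and 0.042). The block fit leaves out CD4conv library 5, where these markers summed lowest (2360 CPM). The part of the libraries left out in these calls was not tested. The log2 fold change of Lyz2 was -0.51 without CD4conv libraries 2 and 3 (adjusted p = 0.92) and that of Csf1r turned to 0.54 (adjusted p = 0.87). Without CD4conv library 3 alone they were -2.85 and -0.71. Without CD4conv libraries 2 and 3, 5 of the 14 markers were called lower and the median was -1.67.

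Other genes among the lowest fold changes included signalling adaptors of myeloid and NK cells. Tyrobp, which encodes the adaptor DAP12, stood at 5.79, 2.09, 9.41 and 4.20 CPM against 654, 1267, 899.6 and 274 CPM. Tyrobp was lower in Treg (log2 fold change -7.03 ± 0.61 (SE), adjusted p = 9.44e-07). Fcer1g, the Fc receptor gamma chain, stood at 6.56, 2.93, 9.28 and 2.24 against 91.7, 399, 377 and 36.5 CPM. Fcer1g was lower in Treg (log2 fold change -5.35 ± 0.75 (SE), adjusted p = 2.45e-04). Slpi, a secreted inhibitor of leukocyte proteases, stood at 2.93, 1.67, 0.198 and 0 against 192, 334, 218 and 59.4 CPM. Slpi was lower in Treg (log2 fold change -7.23 ± 1.08 (SE), adjusted p = 5.22e-04). Scimp, an adaptor of antigen-presenting cells, and Mzb1, a chaperone of the secretory pathway in B lineage and plasmacytoid dendritic cells, were 81.0-fold and 82.4-fold lower (adjusted p = 0.0034 and 0.0017). Slamf9, a receptor of the SLAM family, was 55.8-fold lower (adjusted p = 0.0055, and 0.092 without CD4conv libraries 2 and 3). Its log2 fold change was -5.80 and -8.80 without Treg library 2. Gm21762, a predicted gene, stood at 0.309, 0, 0 and 0 against 33.9, 52.1, 37.3 and 15.2 CPM (adjusted p = 0.0011).

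Natural killer (NK) cells kill through granules, and their activating receptors signal through the adaptors just named, which are on their list. Of 16 NK cell markers, 8 were above background and 6 were lower, beside 4.28% of all 4719 genes. The median was -3.20, and summed levels were 131 to 176 CPM in Treg and 868 to 2445 CPM in CD4conv. These markers too could pass the background filter through CD4conv alone. Over all genes, 3 of 15 tested were lower, beside 0.399% of all 30096 genes, with a median of -2.49. Nkg7, a granule protein, stood at 25.9, 14.6, 30.6 and 13.4 CPM against 141, 241, 80.9 and 161 CPM. Nkg7 was lower in Treg (log2 fold change -2.74 ± 0.53 (SE), adjusted p = 0.0032). Ctsw, a cathepsin of cytotoxic lymphocytes, and Cd7 were 5.56-fold and 5.31-fold lower (adjusted p = 2.45e-04 and 3.33e-04). Klrd1, the receptor chain CD94, stood at 0, 8.15, 2.90 and 1.68 against 51.8, 73.4, 50.1 and 29.1 CPM (log2 fold change -3.73 ± 0.98 (SE), adjusted p = 0.024), a call lost without CD4conv library 2 or 3 or Treg library 3 (adjusted p up to 0.071), with the block (adjusted p = 0.083) and without CD4conv libraries 2 and 3 (adjusted p = 0.22). Gzma, Xcl1 and Ncr1, the last of which defines NK cells, were not called (log2 fold change -1.92 ± 0.85 (SE), adjusted p = 0.18, -3.66 ± 1.32 (SE), adjusted p = 0.095 and, over all genes, -1.75 ± 0.86 (SE), adjusted p = 1.00), and the first 2 were with the block (adjusted p = 0.046 and 0.019). The coreceptor gene of cytotoxic T cells Cd8b1 stood at 13.3, 26.5, 12.6 and 8.95 against 286, 295, 300.4 and 119 CPM (log2 fold change -3.79 ± 0.49 (SE), adjusted p = 8.29e-05), while its partner Cd8a was outside the set above background and was not called over all genes (log2 fold change -3.28 ± 0.79 (SE), adjusted p = 0.071). Igkc, the kappa light chain of B cells and plasma cells, was read at 742, 90.0, 1348 and 38.7 CPM in CD4conv against 16.9, 15.7, 31.8 and 34.4 CPM and was called over all genes (log2 fold change -4.61 ± 0.92 (SE), adjusted p = 0.014), although not without CD4conv library 3 or Treg library 1 or 2 (adjusted p up to 0.080), CD4conv libraries 2 and 3 (adjusted p = 0.17) or Treg libraries 2 and 4 (adjusted p = 0.17). The B cell surface gene Ms4a1 was not called (log2 fold change -0.03 ± 0.62 (SE), adjusted p = 1.00).

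Genes of the uterus's structural cells were mostly at background. Lists of fibroblast, smooth muscle, endothelial, epithelial, decidual and trophoblast genes had 0 to 3 members each above background. The sums in Treg libraries were 88.6 to 514 CPM for fibroblast genes and 66.9 to 274 CPM for smooth muscle genes, against 85.8 to 318 CPM and 31.4 to 99.8 CPM in CD4conv. Endothelial genes summed to 312 to 759 CPM in Treg against 226 to 345 CPM in CD4conv, and epithelial genes to 37.8 to 190 CPM against 85.4 to 583 CPM. The 1 endothelial gene above background was called higher by DESeq2 and against 10 times the background, but not in the main fit. Actg2, a smooth muscle actin, was the only member of these lists that was called in the main fit, at 8.64, 20.9, 33.0 and 29.1 CPM against 5.58, 4.96, 7.14 and 8.34 CPM. Actg2 was higher in Treg (log2 fold change 2.17 ± 0.55 (SE), adjusted p = 0.021). Its call was lost without CD4conv library 1, 2 or 3 or Treg library 4 (adjusted p up to 0.060), with the block (adjusted p = 0.17), without CD4conv libraries 2 and 3 (0.18) and without Treg libraries 2 and 4 (0.13). Trophoblast genes summed to 20.5, 66.2, 13.8 and 244 CPM in Treg libraries 1 to 4 and 18.9 to 46.3 CPM in CD4conv, with Plac1 at 0.309, 2.30, 0.79 and 41.7 CPM in Treg. Haemoglobin transcripts such as Hbb-bs were uneven within both groups, at 0.386, 0, 74.1 and 66.9 CPM in Treg and 0.547, 29.5, 71.9 and 0.391 CPM in CD4conv, and were not called (log2 fold change 0.83 ± 1.95 (SE), adjusted p = 0.82). Of the remaining lists, Klrg1 was the 1 gene of mast cells and type 2 innate lymphoid cells above background, and 1 neutrophil and 4 erythroid genes above background gave 0 calls by edgeR, 0 by DESeq2 and 0 at an unadjusted p under 0.05.

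Outside the set above background, the genes with the lowest fold changes over all genes were named by the same kind of rule, and 1 gene met it among the higher. Nxpe4 was 6.91-fold higher at 44.5, 30.1, 21.1 and 40.6 CPM against 3.83, 1.71, 3.42 and 10.2 CPM (adjusted p = 0.048), and held only without Treg library 4 or CD4conv library 5 among the fits that each leave out 1 library (adjusted p up to 0.25) and not with the block (adjusted p = 0.060) or without CD4conv libraries 2 and 3 (1). Lefty1, a ligand that antagonises Nodal and a listed plasmacytoid dendritic cell marker, had 3 counts over all Treg libraries and 1479 over all CD4conv libraries, a ratio of levels of 461 (exact 95% interval 157 to 2237, counting error only), and an adjusted p of 5.24e-04. Epha2, an ephrin receptor, stood at 0.463, 1.04, 0.0658 and 0 against 49.0, 28.6, 76.5 and 31.8 CPM. Epha2 was lower in Treg (log2 fold change -7.11 ± 1.08 (SE), adjusted p = 9.59e-04). Ncf1, a subunit of the phagocyte oxidase, stood at 0.463, 2.30, 2.57 and 0 against 92.0, 140.2, 191 and 35.6 CPM. Ncf1 was lower in Treg (log2 fold change -6.56 ± 1.09 (SE), adjusted p = 0.0022, and adjusted p = 0.17 without CD4conv libraries 2 and 3). Mgl2, a lectin of dendritic cells and macrophages, was highest in CD4conv libraries 2 and 3, at 13.7, 108, 128 and 3.78 CPM in the 4 libraries, and the call was lost without CD4conv library 2 or 3 or Treg library 1 or 2 (log2 fold change -6.06 ± 1.20 (SE), adjusted p = 0.012, with adjusted p up to 0.085, 1 without CD4conv libraries 2 and 3 and 0.13 without Treg libraries 2 and 4). Klk4 was 55.6-fold lower (adjusted p = 0.011), a call lost without CD4conv library 3 or Treg library 1 or 3 (adjusted p up to 0.058) or without CD4conv libraries 2 and 3 (0.34).

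The non-pregnant uterine Treg give the nearest view of cell type without pregnancy, although they were sequenced in the other batch, and pregnancy and batch cannot be told apart between the Treg groups. Both Treg groups were set against the same CD4conv libraries. Foxp3 was read at 394, 714, 331 and 227 CPM in non-pregnant uterine Treg, beside the 677, 216, 814 and 192 CPM of pregnancy. Rln3 stood at 32.9, 54.9, 33.5 and 7.92 CPM in the non-pregnant libraries, so that the nearly equal levels of the pregnant ones fell inside their range. Cd74 stood at 191, 33.0, 132 and 175 CPM and Siglech at 0, 17.5, 42.5 and 35.6 CPM, both far below the CD4conv libraries. Il1rl1 stood at 93.4, 90.1, 57.3 and 32.2 CPM in non-pregnant and 219, 114, 189.5 and 84.5 CPM in pregnant Treg. Its log2 fold change against CD4conv was 0.98 (adjusted p = 0.085) for non-pregnant and 2.22 for pregnant Treg, and the direct difference between the Treg groups was 1.24 ± 0.33 (SE), with an adjusted p of 0.65. Between pregnant and non-pregnant uterine Treg, edgeR called 0 of the 4719 genes higher (0%) and 0 lower (0%), with 173 and 128 genes at an unadjusted p under 0.05, while DESeq2 called 5 and 2.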

How the data were processed

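Counts of read pairs per gene were deposited for 16 mouse libraries and are whole-number counts that the authors had not normalized. Per the labels' protocols, CD4 cells were enriched with beads and sorted, and amplified cDNA was made with SMART-Seq v4 and Nextera XT, which keep no strand. Per the submitters' processing notes, Trimmomatic, HISAT2, SAMtools, featureCounts and DESeq2 were used with GRCm38. The sources used here give no versions. All 16 single-library files held the same counts as the deposited table of 49585 genes, of which 49326 were named through GENCODE M21.

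CPM are counts scaled to a library total of 1000000. Genes were tested on the counts with edgeR 4.0.16 (R 4.3.3): TMM scaling, robust quasi-likelihood fit, all 16 libraries in 4 groups so that the spread is shared, adjusted p under 0.05. Standard errors come from the size of the log2 fold change over the root of the F statistic. Genes above background were protein-coding, passed filterByExpr and exceeded 5 times the level per exonic base of 1427 odorant and pheromone receptor genes. Both levels were mean shares of counts over all 16 libraries. All genes means all that passed filterByExpr. Alternatives were DESeq2 1.42.0, other scaling, filters and library subsets. The tests were tried on simulated counts.

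No replicate pair differed by as little as sampling noise. Same-numbered pregnant Treg and CD4conv libraries had deviations from their group means that correlated at 0.127, 0.143 and 0.105 across genes (other pairings from -0.179 to 0.111), so numbers 1, 2 and 3 were also fitted as a block, although no label ties them to shared animals.

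Named genes were 12 fixed genes, the 15 highest and 15 lowest fold changes among called genes above background that reached 20 CPM on average in the group with more and whose groups did not overlap, in each list up to 6 called members by p and up to 4 others by level, and up to 5 genes a direction called over all genes but not above background. The comparison, lists and rules were chosen with earlier results of these data known. A few genes that met these rules are not reported here.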

Additional observations from a re-analysis of the deposited data

Results flagged for a closer look

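In each group of 4 libraries, a library was picked out when its gap to the nearest other, relative to the group's range, exceeded Dixon's 95% critical value. Of 280 such groups over 140 genes, 15 were picked out, and chance alone picks out about 1 in 20.

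In CD4conv library 2, Gpr15 stood at 14.96 CPM and Rgs2 at 1281 CPM, above the other CD4conv libraries, and Stat6 at 63.65 CPM, below them. In CD4conv library 3, Ccr2 at 771.8 CPM, Dusp1 at 1569 CPM and Plaur at 141.2 CPM were high and Bcl2 at 133.3 CPM was low. In CD4conv library 5, Hif1a at 780.3 CPM was high and Cd8b1 at 118.8 CPM was low. Among pregnant Treg libraries, Gm21762 at 0.309 CPM was high in library 1, where the other 3 had no count. Library 2 was high for Spib at 8.98 CPM, Slamf9 at 5.01 CPM and Lefty1 at 0.627 CPM. Library 3 was high for Apoe at 97.43 CPM. Library 4 was high for the trophoblast gene Plac1 at 41.69 CPM, where the next library had 2.30 CPM.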

How the results depend on the processing

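Among the 90 named genes that were called, no log2 fold change turned sign under the alternatives that were run for them. Against 194 genes higher and 202 lower above background, a fit of the 8 compared libraries alone gave 65 and 98, DESeq2 292 and 326, the fit without CD4conv libraries 2 and 3 63 and 46, and the fit without pregnant Treg libraries 2 and 4 165 and 123. Of the 63 and 46, 59 and 46 were among the 194 and 202. Leaving out 1 library at a time gave 115 to 217 higher and 122 to 256 lower. Over all genes, against 10 higher and 120 lower, the same alternatives gave 2 and 74, 56 and 274, 1 and 23, and 35 and 70, and leaving out 1 library gave 2 to 16 higher and 69 to 148 lower. The replicate block gave 236 and 247 above background and 8 and 174 over all genes, beside 117 and 174, and 14 and 203, for the same 6 libraries without the block. Size factors of the DESeq2 type (179 and 205), a stricter background multiple of 10 (188 and 153) and other count filters over all genes (11 and 152, 9 and 134) stayed within 1.5 times. The choice to leave out CD4conv libraries 2 and 3, and the fit of the 6 libraries without the block, were added after the data were seen. Where a call was lost, the cause was not tested, and neither was the part of the smaller number of libraries.

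Of 90 named genes that were called, 68 were called in each of the 8 fits that leave out 1 library, 74 without Treg libraries 2 and 4, 52 without CD4conv libraries 2 and 3, and 76 with the block. In the fit of the 8 compared libraries alone 24 named genes lost their call. Among them were Il10, Klrg1, Icos, Cd27, Bcl2, Ifng, Itga6 and Slc2a3. That fit called higher 10 of 15 core Treg genes, 6 of 19 effector and tissue Treg genes and 4 of 15 TNF family genes. It called higher 2 of 17 NF-kB and 0 of 16 interferon response genes, and lower 9 of 11 plasmacytoid dendritic cell markers. In the fit over all genes 45 named genes lost their call. These included Il2ra, Areg, Il1rl1 and Dusp4 (adjusted p = 0.083, 0.27, 0.17 and 0.12). Library 4 of the Treg had the fewest counts and the most background, so genes near background there are the least certain. The 4 pools a group limit every test.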

Other observations

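The members of 4 gene families, picked by symbol after their values were seen, are described here without a test of the family. The Ikaros, SLAM, kallikrein and V-ATPase families were looked at in the same way and are not described as families. The shares called over all 4719 genes were 4.11% higher and 4.28% lower. Cathepsins, the proteases of lysosomes, had 11 members above background, of which 8 were lower in pregnant uterine Treg and none higher (Ctsw, Ctsl, Ctss, Ctsh, Ctsb, Ctsc, Ctsd and Ctsz), with a median log2 fold change of -2.48. Without CD4conv libraries 2 and 3, the libraries richest in macrophage markers, 3 of them were called and the median was -1.12. Of 8 genes of MHC class II presentation above background, 7 were lower and 1, H2-Ob, was higher, and without those libraries 4 were lower and none was higher. In the fit over all genes, 2 of 18 cathepsins and 6 of 11 of these class II genes were called lower and none higher. Genes high in CD4conv alone could pass the background filter through that group.

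Guanylate binding proteins are interferon-induced GTPases that attack intracellular pathogens. All 7 members above background had a positive log2 fold change, with a median of 1.14, and Gbp3, Gbp7, Gbp2b and Gbp8 were called higher. The calls numbered 2 without CD4conv libraries 2 and 3 and 2 without Treg libraries 2 and 4, and in the fit over all genes 0 of 10 members were called. Near-identical members of this family may share reads. Of 76 cytosolic ribosomal protein genes above background, 75 had a negative log2 fold change, with a median of -0.97, and 10 were called lower, beside 4.28% of all 4719 genes. No ribosomal protein gene was called in the fit over all genes by edgeR or without CD4conv libraries 2 and 3, when the median was -0.53, and 3 were called without Treg libraries 2 and 4. Ribosomal protein genes have many pseudogene copies, so their counts are uncertain. The part of the other cells' markers, and of background, in these family values was not tested.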
